A study of Mus musculus with 6 samples.

Results

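The 7 genes described here encode the coagulation and anticoagulant proteins that macrophages of the peritoneal cavity are known to make: tissue factor (F3), factor VII (F7), factor X (F10), factor V (F5), the A subunit of factor XIII (F13a1), thrombomodulin (Thbd) and the endothelial protein C receptor (Procr). They were picked by gene name. The rule contains no measured value, but earlier results of these data were known when it was made. Each was measured by 1 probe set of the 25206 on the array, and all 7 were found among the 23185 genes that the probe sets name. Their levels were followed across all 6 arrays of a study of peritoneal macrophages from mice with and without Tet2, a dioxygenase that oxidises methylated cytosine in DNA.

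Coagulation starts when tissue factor, a membrane receptor, binds factor VII and the pair activates factor X. Activated factor X, with factor V as its cofactor, turns prothrombin into thrombin, which makes fibrin, and factor XIII then cross-links the fibrin strands. Thrombomodulin and the protein C receptor act the other way, since together they let thrombin activate protein C, which cuts factor V. Most circulating factors come from the liver, but macrophages are a known source of tissue factor, factor VII, factor X and the factor XIII A subunit. Factor V is a known marker of the large resident macrophages of the peritoneal cavity.

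All 6 samples were macrophages of C57BL/6J mice, collected from the peritoneal cavity 4 days after 1 mL of aged 4% Brewer's thioglycollate, an irritant that recruits macrophages. They were plated in medium with serum and antibiotics, left untreated, and used for RNA after 10 h. One group held 3 Tet2-/- samples and the other 3 samples of wild-type littermates, each numbered as biological replicates 4, 5 and 6. Neither the age of the mice nor the deleted part of Tet2 is given in the sources used here, and it is not stated whether each replicate came from its own animal, so p-values measure only the spread between these samples. The genotype field of the labels contradicted the sample titles for 4 of the 6 samples. Groups follow the titles, and each direction below refers to samples titled as Tet2 deficient.

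Tet2 itself was at 4.35, 3.74 and 3.79 log2 units in wild-type replicates 4, 5 and 6 and at 3.80, 4.05 and 3.67 in the Tet2-/- replicates, so its level does not settle the labels. Array medians lay between 2.77 and 2.93 log2 units. The array of Tet2-/- replicate 6 had the highest median and the lowest mean correlation with the others, 0.982 against 0.986 to 0.989, and differences of the 7 genes that turn on it are given with and without it. All 7 measured macrophage markers, among them Cd68, Itgam and Csf1r, were above the silent-gene level on all 6 arrays. That level is the 95th percentile of 1354 probe sets for olfactory and vomeronasal receptors, and it lay between 2.41 and 2.70 log2 units. All 7 coagulation genes were above it on all 6 arrays as well. In bulk RNA, fewer cells of a type and less RNA per cell cannot be told apart.

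Between the genotypes, 3 of the 7 genes, F7, Procr and F3, were lower on every Tet2-/- array than on any wild-type array, and F13a1 was higher on every one. Factor VII and the protein C receptor showed the clearest separation, with mean differences of -0.76 and -0.90 log2 units. Groups did not overlap for 7.41% of all 25206 probe sets, in 4.07% with every Tet2-/- array lower and in 3.33% with every one higher. None of the 7 genes passed an adjusted p of 0.05 by limma, nor did any other probe set (percent called 0, smallest adjusted p = 0.197). At an unadjusted p under 0.05 there were 2 of the 7, F7 and Procr, beside 3.61% of all probe sets, and both were lower in Tet2-/-, beside 1.9% (1.71% were higher). All 7 genes were in the brighter part of the array, the 12597 probe sets above the median level. There the groups did not overlap for 7.26%, every Tet2-/- array was lower for 4.22%, and 4.41% had an unadjusted p under 0.05. The median difference of the 7 genes was -0.047, beside 0.0 over all probe sets.

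**Figure D1:**
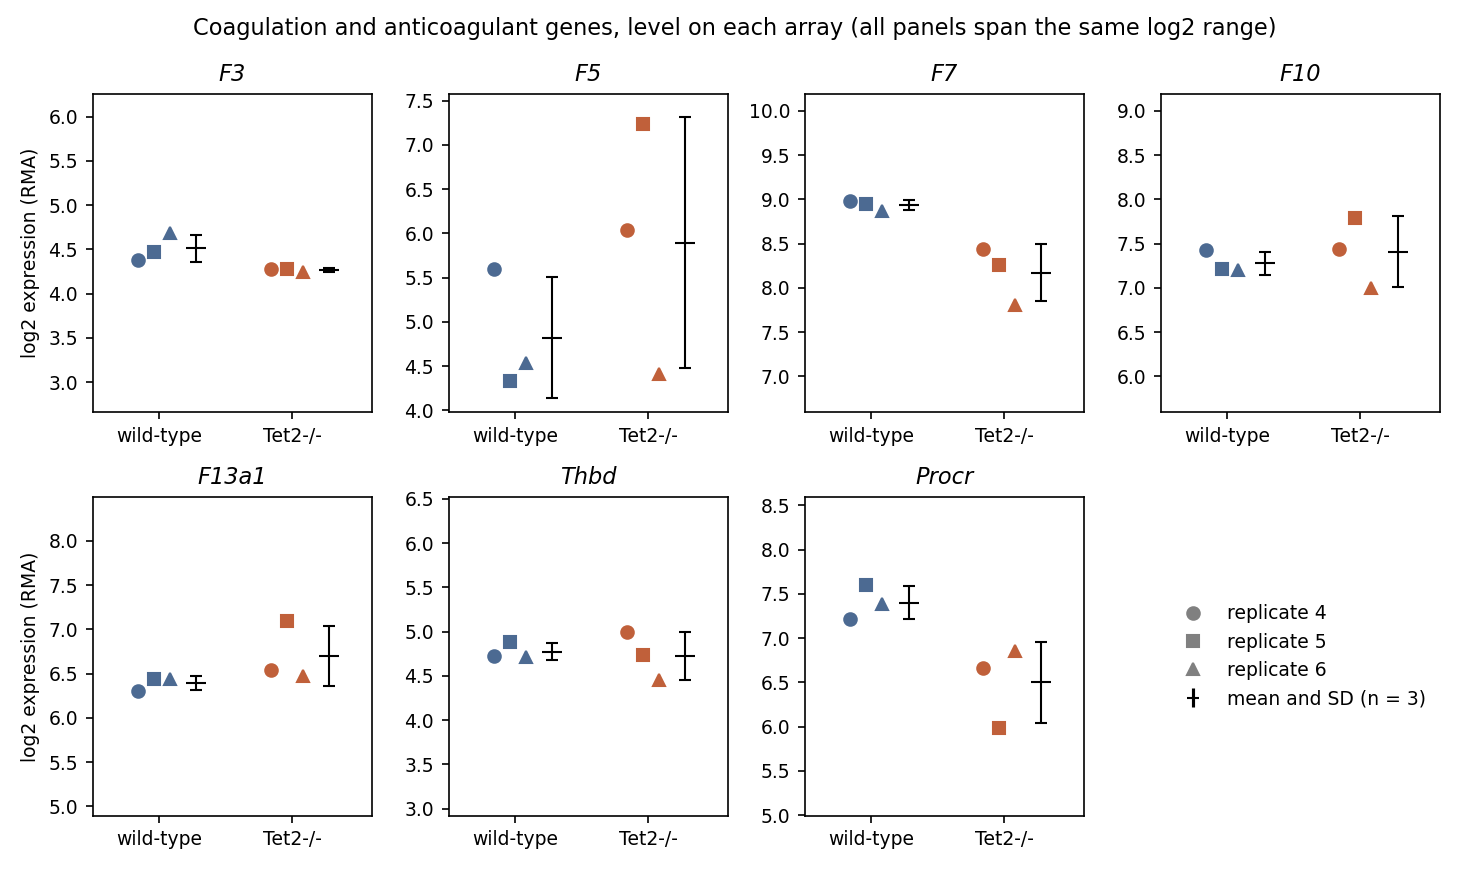
Level of each of the 7 genes on each array in log2 units, with 1 panel per gene and marker shapes for replicates 4, 5 and 6; black bars give the mean and SD (n = 3). F7 and Procr are separated by genotype by 0.43 and 0.36 log2 units, while the Tet2-/- values of F5 spread over 2.82 log2 units.

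The initiators come first. F7 encodes the protease that tissue factor binds. Its log2 level was 8.98, 8.95 and 8.87 in wild-type replicates 4, 5 and 6, and 8.44, 8.26 and 7.81 in Tet2-/- replicates 4, 5 and 6. The wild-type arrays lay within 0.11 of each other, every Tet2-/- array was lower, and the nearest arrays of the groups were 0.43 apart. Group means were 8.93 ± 0.057 and 8.17 ± 0.32 (SD, n = 3 each). The difference was -0.76 (standard error 0.17, 95% confidence interval -1.16 to -0.37, 0.589-fold) and missed the threshold (limma unadjusted p = 0.00181, adjusted p = 0.973), and F7 ranked 47 among all probe sets by p. Leaving out single arrays gave -0.90 to -0.58, the latter without Tet2-/- replicate 6, the array with the lowest F7 value.

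F3 encodes tissue factor, the receptor that starts clotting when it meets blood. Its level was 4.38, 4.47 and 4.68 log2 units on the wild-type arrays and 4.28, 4.28 and 4.24 on the Tet2-/- arrays, in the order of replicates 4, 5 and 6. The groups did not overlap, but the gap of 0.10 between them was smaller than the wild-type spread of 0.30. The difference was -0.24 (standard error 0.13, interval -0.545 to 0.058, limma adjusted p = 0.998). It was -0.16 without wild-type replicate 6, the highest array.

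F7 lies next to F10 in the RefSeq annotation, and the starts of the genes are 11274 bases apart. F10 encodes the protease that the tissue factor and factor VII pair activates. The promoter windows of this neighbouring pair are shown because the 2 genes gave different results: the groups overlapped for F10. Each window runs from 250 bases before to 50 bases after the annotated start (RefSeq, GRCm38.p6, plus strand), at chr8:13025784-13026083 for F7 and chr8:13037058-13037357 for F10. Capitals mark matches to the motifs named after them.
F7: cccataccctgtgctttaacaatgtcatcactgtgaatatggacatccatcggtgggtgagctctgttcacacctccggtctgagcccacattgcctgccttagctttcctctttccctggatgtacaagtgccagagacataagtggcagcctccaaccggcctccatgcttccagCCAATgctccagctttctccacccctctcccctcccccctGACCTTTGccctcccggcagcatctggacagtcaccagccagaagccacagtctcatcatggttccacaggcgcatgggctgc
F10: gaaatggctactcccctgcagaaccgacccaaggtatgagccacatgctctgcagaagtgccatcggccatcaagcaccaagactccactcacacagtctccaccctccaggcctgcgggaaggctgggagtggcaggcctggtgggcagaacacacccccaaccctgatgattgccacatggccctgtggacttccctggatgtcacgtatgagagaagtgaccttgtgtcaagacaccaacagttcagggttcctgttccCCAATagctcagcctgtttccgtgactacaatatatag

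Both windows hold the letters CCAAT, on the plus strand at position -73 in F7 and 13 in F10, counted from the first transcribed base. The F7 window also holds GACCTTTG, the reverse complement of CAAAGGTC, at -33. These letters form part of an element that nuclear receptors bind, and 1.17% of all 32851 promoter windows hold it on either strand, beside 37.4% for CCAAT. The F10 window lacks these letters.

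F10 was at 7.43, 7.21 and 7.20 log2 units in wild-type replicates 4, 5 and 6 and at 7.44, 7.79 and 7.0 in the Tet2-/- replicates. Tet2-/- replicate 5 was the highest of the 6 arrays and Tet2-/- replicate 6 the lowest, so the Tet2-/- group enclosed the wild-type group. The difference was 0.13 (standard error 0.20, interval -0.32 to 0.58, limma adjusted p = 0.998). Dropping Tet2-/- replicate 6 gave 0.335 and dropping Tet2-/- replicate 5 gave -0.06. On the other sides of the pair, Mcf2l, a guanine nucleotide exchange factor next to F7, differed by -0.087. Proz, which encodes the clotting inhibitor cofactor protein Z and lies next to F10, differed by 0.01. No test of F7 against its neighbours was made.

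F5 encodes factor V, the cofactor of activated factor X. It was at 5.60, 4.33 and 4.53 log2 units in wild-type replicates 4, 5 and 6, and at 6.04, 7.23 and 4.41 in Tet2-/- replicates 4, 5 and 6. The groups overlapped widely: Tet2-/- replicate 5 stood far above all others, whereas Tet2-/- replicate 6 lay below wild-type replicates 4 and 6. The range of 2.90 over the 6 arrays was wider than that of 99.9% of all probe sets. On average the Tet2-/- arrays were higher by 1.07 (standard error 0.62, interval -0.33 to 2.48, 2.10-fold), which did not reach the threshold (limma adjusted p = 0.998). Dropping Tet2-/- replicate 5 gave 0.405, and dropping Tet2-/- replicate 6 gave 1.815 (limma adjusted p = 0.235), so single arrays set its size.

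As a list, markers of the large resident peritoneal macrophage moved with F5 from array to array. Of 10 measured, 8 had a higher mean in Tet2-/- and 2 a lower one (median difference 0.65), 4 had an unadjusted p under 0.05, beside 3.61% of all probe sets, and 0 passed the adjusted threshold. Dropping Tet2-/- replicate 5 gave a median of 0.384, and dropping replicate 6 one of 0.994. Their summed linear level ran from 2505 to 2613 in wild-type and from 2433 to 3299 in Tet2-/-, and 9 of the 10 were above the silent-gene level on all 6 arrays, the exception being Rarb. Relative to the 6-array mean, the list stood at -0.045, -0.51 and -0.47 log2 units in wild-type replicates 4, 5 and 6 and at 0.63, 0.82 and -0.44 in the Tet2-/- replicates. F5 stood at 0.24, -1.03, -0.83, 0.68, 1.87 and -0.95 in the same order. The 2 markers with a lower mean were Cd9 (-0.16), which was lowest in Tet2-/- replicate 5, and Rarb (-0.053). The general macrophage list also moved with F5, by smaller amounts, at 0.17, -0.17, -0.13, 0.21, 0.35 and -0.42 in that order. The part of these cells in the F5 values was not tested.

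The gene with the pattern most like F5 over the 6 arrays was the resident macrophage marker Prg4, which encodes the lubricating glycoprotein lubricin. Among the 1362 genes compared it had the highest Pearson r, 0.9992 (Spearman rho 1.0, n = 6 arrays). Prg4 was at 7.28, 5.98 and 6.22 on the wild-type arrays and at 7.65, 8.79 and 5.99 on the Tet2-/- arrays. Next were Dock4, a guanine nucleotide exchange factor, at r = 0.9961, and Ctsc, the protease cathepsin C, at r = 0.9955, both with the same order of arrays as F5. These genes were picked as the highest of many and share the same 6 arrays, so the coefficients are a description.

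B-cell genes were also highest on the array where F5 was highest. All 6 measured had a higher mean in Tet2-/- (median difference 1.01, 3 at an unadjusted p under 0.05, beside 3.61% of all probe sets, and 0 past the adjusted threshold). Dropping Tet2-/- replicate 5 gave a median of 0.38, and dropping replicate 6 one of 1.686. Their summed linear level ran from 51.5 to 101 in wild-type and from 60.4 to 333 in Tet2-/-. Only 2 of the 6, Cd79b and Ighm, were above the silent-gene level on all 6 arrays. The list stood at 1.39 in Tet2-/- replicate 5 and 0.505 in replicate 4, and between -0.60 and -0.36 on the other 4 arrays. Here wild-type replicate 4, the third highest array for F5, had the lowest value. Of the genes flanking F5, Selp, which encodes P-selectin and is itself on the resident macrophage list, differed by 0.46, and by 0.963 without Tet2-/- replicate 6. On the other side Slc19a2, a thiamine transporter, differed by 0.03. The part of B cells in the F5 values was not tested.

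**Figure D2:**
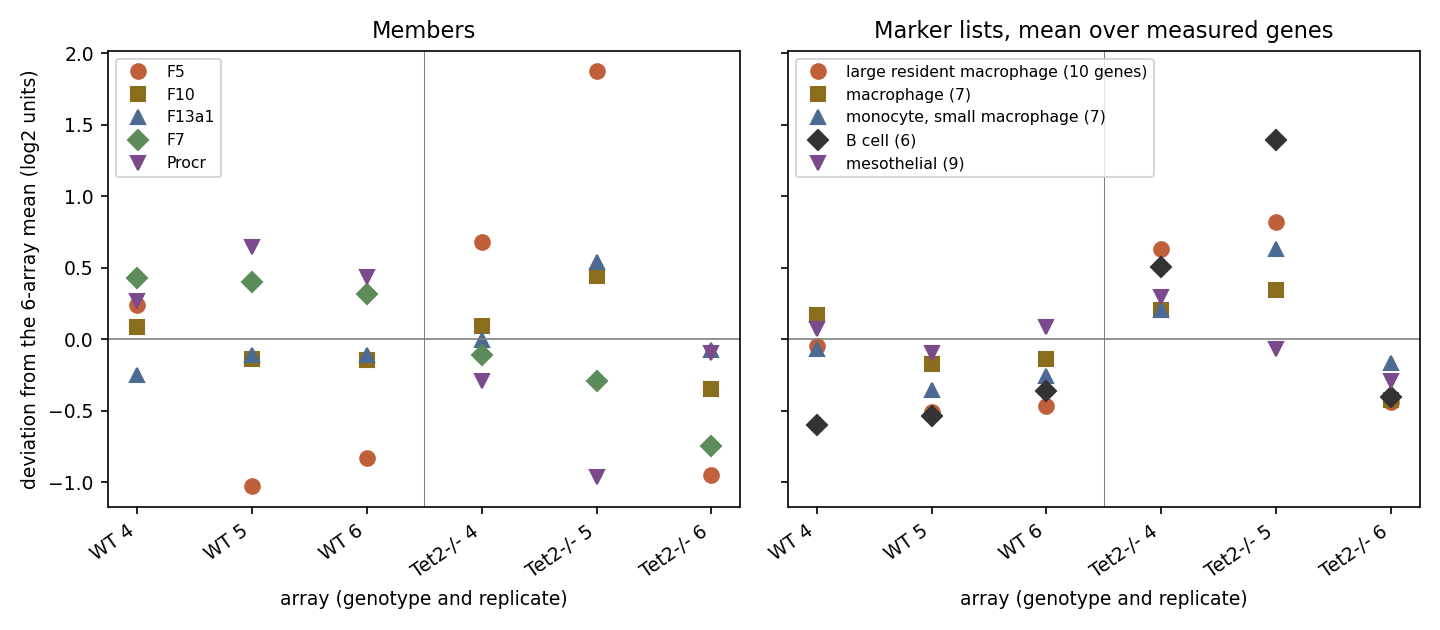
Deviation from the 6-array mean (log2 units) for 5 of the genes on the left and for the mean of 5 marker lists on the right, by array. F5 is highest at 1.87 in Tet2-/- replicate 5, where the resident macrophage list is at 0.82, and both are low in Tet2-/- replicate 6, at -0.95 and -0.44.

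F13a1 encodes the catalytic subunit of factor XIII, the transglutaminase that cross-links fibrin, and is known in monocytes, some macrophages and platelets. It was at 6.30, 6.44 and 6.44 log2 units in wild-type replicates 4, 5 and 6 and at 6.54, 7.09 and 6.47 in the Tet2-/- replicates. Every Tet2-/- array was higher, but Tet2-/- replicate 6 by only 0.03, and replicate 5 stood well above the rest. The difference was 0.31 (standard error 0.18, interval -0.10 to 0.71, limma adjusted p = 0.998), and 0.11 without Tet2-/- replicate 5.

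Monocyte and small peritoneal macrophage genes were as a list highest in Tet2-/- replicate 5, as F13a1 was, but list and gene differed on other arrays. Of 7 measured, 5 had a higher mean in Tet2-/- and 2 a lower one (median difference 0.53, 4 at an unadjusted p under 0.05, beside 3.61% of all probe sets, and 0 past the adjusted threshold). Dropping Tet2-/- replicate 5 gave a median of 0.352, and dropping replicate 6 one of 0.802. Their summed linear level was 258 to 326 in wild-type and 294 to 611 in Tet2-/-, and Cd226 was at or under the silent-gene level on every array. Relative to the 6-array mean, the list stood at -0.066, -0.355 and -0.254 in wild-type replicates 4, 5 and 6. In the Tet2-/- replicates it stood at 0.206, 0.634 and -0.165. F13a1 stood at -0.247, -0.107, -0.107, -0.007, 0.543 and -0.077 in the same order. The B-cell, resident macrophage and general macrophage lists were also highest in Tet2-/- replicate 5. Ccr2 and Plac8 were higher on every Tet2-/- array, with differences of 1.38 and 1.77 (Plac8 0.922 without Tet2-/- replicate 5), and Itgax was lower on every one, at -1.49. Of 9 megakaryocyte and platelet genes, 3 had a higher mean and 6 a lower one (median -0.04, summed linear level 291 to 390 in wild-type and 248 to 311 in Tet2-/-), and 5 of the 9, Pf4, Treml1, Gp9, Itga2b and Gp1bb, were above the silent-gene level on all 6 arrays, whereas Ppbp, Gp5 and Tubb1 were under it on all. The part of these cells in the F13a1 values was not tested.

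The flanking genes of F13a1 gave differences within their spread. Ly86, which encodes MD-1, a partner of a receptor of the toll-like family, differed by 0.13, and Nrn1, a neuronal protein, by 0.04 at levels under the silent-gene level. Among the other transglutaminases, 7 measured, 4 had a higher mean and 2 a lower one (median 0.013), and 0 passed. Tgm1, the keratinocyte enzyme, was higher on every Tet2-/- array (difference 0.24). Tgm4 was as well, at 0.16, but was under the silent-gene level on all arrays, and Tgm6 differed by -0.22. Tgm2, the tissue transglutaminase, named here for its role, differed by 0.01.

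On the anticoagulant side, the receptor and thrombomodulin gave different values. Procr encodes the receptor that presents protein C to thrombin and thrombomodulin. It was at 7.22, 7.6 and 7.39 log2 units in wild-type replicates 4, 5 and 6 and at 6.66, 5.99 and 6.86 in the Tet2-/- replicates. Every Tet2-/- array was lower, the nearest arrays being 0.36 apart, and replicate 5 was the lowest. Group means were 7.40 ± 0.19 and 6.50 ± 0.46 (SD, n = 3 each). The difference was -0.90 (standard error 0.225, interval -1.41 to -0.39, 0.536-fold) and missed the threshold (limma unadjusted p = 0.00318, adjusted p = 0.998), and Procr ranked 69 by p. It ran from -1.08 without Tet2-/- replicate 6 to -0.64 without Tet2-/- replicate 5.

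Thbd encodes thrombomodulin, which binds thrombin and turns it towards protein C. It was at 4.72, 4.88 and 4.71 log2 units on the wild-type arrays and at 4.99, 4.73 and 4.45 on the Tet2-/- arrays, in the order of replicates 4, 5 and 6. The groups overlapped, with the highest and the lowest of the 6 arrays both in the Tet2-/- group. The difference was -0.047 (standard error 0.16, interval -0.41 to 0.32, limma adjusted p = 0.998). Its sign turned without wild-type replicate 5 (0.008) and without Tet2-/- replicate 6 (0.09), and it was -0.18 without Tet2-/- replicate 4. The neighbouring Cd93, a complement-related receptor, differed by -0.04, and Sstr4, a somatostatin receptor, by -0.41, with wild-type replicate 6 the only array above the silent-gene level.

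Beside Procr, Edem2, which marks misfolded glycoproteins for breakdown, was also lower on every Tet2-/- array. It was at 7.30, 7.52 and 7.25 in wild-type and at 7.15, 6.90 and 6.77 in Tet2-/- macrophages, a difference of -0.42 (standard error 0.15, limma unadjusted p = 0.0223, adjusted p = 0.998). Mmp24, a membrane metalloproteinase on the other side, differed by 0.097. The genes most like Procr over the 6 arrays were Aig1, a lipid hydrolase (r = 0.9889, rho 0.943), Syngr1, a vesicle protein (r = 0.9889, rho 0.943), and Atg4a, an autophagy protease (r = 0.9882, rho 1.0). Those most like F7 were Tlr6, a receptor for bacterial lipopeptides (r = 0.9945, rho 1.0), Ifi30, a lysosomal thiol reductase (r = 0.9833, rho 0.943), and Armc10 (r = 0.9367, rho 0.943). As for F5, these were picked as the highest of 1362 genes on the same 6 arrays, so the coefficients are a description. The array order within the Tet2-/- group was not shared by F7 and Procr, F7 being lowest in replicate 6 and Procr in replicate 5.

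Endothelial, mesothelial and fibroblast cells are known to carry tissue factor, thrombomodulin or the protein C receptor, and their markers were read beside F3, Thbd and Procr. Of 9 endothelial genes, 5 had a higher and 3 a lower mean in Tet2-/- (median 0.01, summed linear level 50.7 to 53.5 in wild-type and 54.1 to 61.1 in Tet2-/-), and Tie1, Tek, Esam, Cldn5 and Emcn were under the silent-gene level on all arrays. Of 9 mesothelial genes, 4 were higher and 5 lower (median -0.003, summed level 176 to 202 and 150 to 246). Upk1b, Krt8 and Wt1 were the brightest of them and differed by -0.10, -0.0033 and 0.033. Of 6 fibroblast genes, 5 were higher and 1, Col1a1, lower (median 0.19, summed level 320.5 to 607 and 373 to 496). Above the silent-gene level on all 6 arrays were 5 of the 6 fibroblast and 6 of the 9 mesothelial genes. The brightest fibroblast genes, Dcn, Col1a1 and Col1a2, had 6-array means of 7.13, 6.75 and 6.26 log2 units, beside 4.39 for F3 and 4.75 for Thbd. The fibroblast list was highest in wild-type replicate 6, at 0.43, as was F3, but the 2 differed on other arrays. Relative to the 6-array mean, the list stood at -0.32, -0.38 and 0.43 in wild-type replicates 4, 5 and 6. In the Tet2-/- replicates it stood at 0.22, -0.067 and 0.12. F3 stood at -0.008, 0.082, 0.29, -0.11, -0.11 and -0.15 in the same order. The part of fibroblasts in the F3 values was not tested. Markers of hepatocytes, the main source of circulating factors VII and X, were mixed: Alb and Ttr were under the silent-gene level on all arrays, whereas Apoa2 was above it on all 6 and Apoa1 on 5. Of these genes 3 of 5 measured were higher and 2 lower (median 0.027, summed level 34.9 to 39.8 and 32.2 to 46.6).

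The promoter windows of F3 and Procr are shown because both genes were lower on every Tet2-/- array and both windows hold an AP-1 motif, TGANTCA. They lie at chr3:121723287-121723586 for F3 and chr2:155750967-155751266 for Procr (RefSeq, GRCm38.p6, plus strand, the same span around the start). This pair was picked by its values and by a motif out of 7 searched, so the shared motif is a description. The part of AP-1 in the levels was not tested. Capitals mark AP-1 motifs and, in F3, the GC box GGGCGG on either strand.
F3: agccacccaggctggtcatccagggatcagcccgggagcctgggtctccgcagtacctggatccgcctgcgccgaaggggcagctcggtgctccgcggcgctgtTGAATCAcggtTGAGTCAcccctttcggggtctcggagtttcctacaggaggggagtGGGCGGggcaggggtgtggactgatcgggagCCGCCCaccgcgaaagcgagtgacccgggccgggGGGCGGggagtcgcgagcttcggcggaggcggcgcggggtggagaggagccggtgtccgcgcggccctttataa
Procr: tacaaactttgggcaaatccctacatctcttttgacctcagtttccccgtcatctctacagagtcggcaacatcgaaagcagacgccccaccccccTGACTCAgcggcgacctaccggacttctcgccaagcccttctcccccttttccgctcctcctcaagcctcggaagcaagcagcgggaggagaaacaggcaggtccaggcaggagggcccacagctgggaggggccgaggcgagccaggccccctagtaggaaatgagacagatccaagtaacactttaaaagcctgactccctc

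The F3 window holds the AP-1 letters at positions -146 and -135 and the GC box at -89, -58 and -24. Procr holds AP-1 letters once, at -154. The window of F7, which was also lower on every Tet2-/- array, holds none. AP-1 letters, which read as a match on both strands, occur in 7.81% of all 32851 windows and the GC box in 35.7%. The F5 window holds 1 GC box at -177, and 1 of the 2 F13a1 windows holds GAGGAAGT, a motif of the myeloid factor PU.1 that 3.2% of windows hold, at 15. The GATA motif AGATAA and 1 fixed spelling of an NF-kB motif were searched on both strands. Exact matches to them are in none of the 7 windows of 6 of the genes, beside 11.2% and 1.63% of all windows. The F3 window holds letters that differ from this NF-kB spelling at 1 base. Inexact matches were not counted, so the search cannot tell whether F3 or the other windows hold an NF-kB site. CpG sites, the places where Tet2 acts, numbered 32 in the F3 window, 13 in Procr, 5 each in F7 and F10, 4 in F5, and 3 and 5 in F13a1, beside a median of 7 over all windows. DNA methylation was not measured here.

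**Figure D3:**
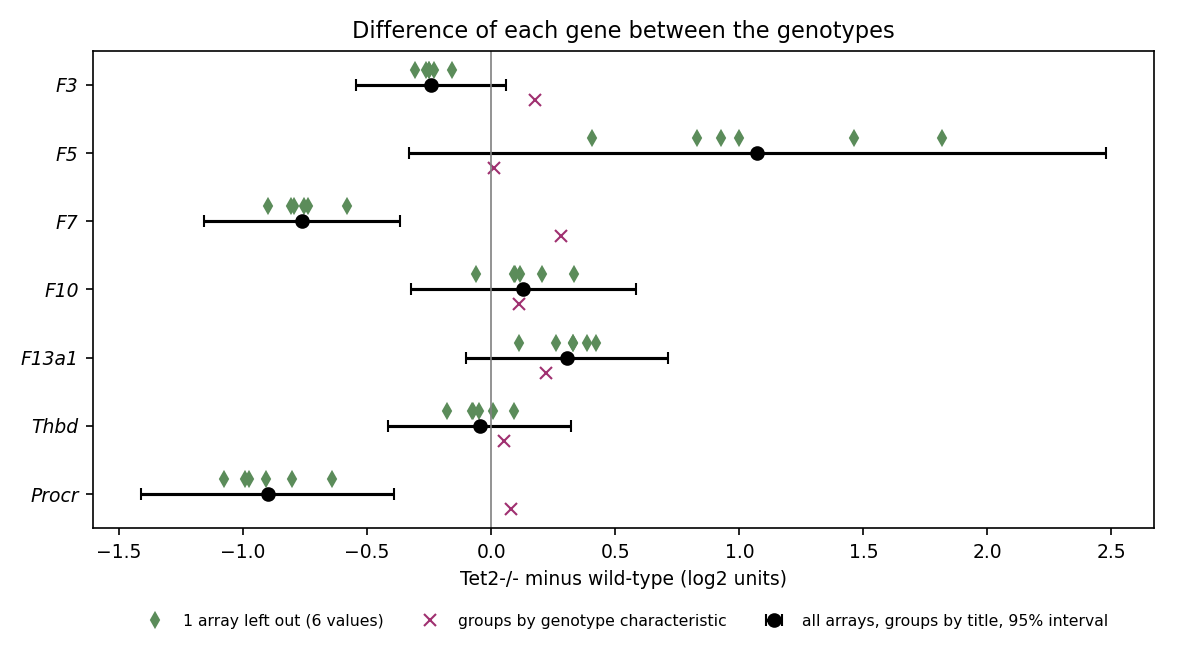
Difference between Tet2-/- and wild-type means (log2 units) for each of the 7 genes: black points with 95% intervals use all arrays by title, green diamonds leave out 1 array each, and crosses group the arrays by the genotype characteristic. The intervals of F7 (-1.16 to -0.37) and Procr (-1.41 to -0.39) lie below 0 by title, and the crosses of both lie above 0, at 0.28 and 0.08.

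The directions rest on the sample titles. With the arrays grouped by the genotype field instead, F7 differed by 0.28, F3 by 0.18, Procr by 0.08 and Thbd by 0.053, each with the opposite sign. F5, F10 and F13a1 were then at 0.013, 0.11 and 0.22.

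The other genes of the pathway were read from 8 lists of known coagulation and fibrinolysis genes. Of 69 measured genes, 35 had a higher mean in Tet2-/- and 33 a lower one, with a median difference of 0.01 beside 0.0 over all probe sets. None passed (smallest limma adjusted p = 0.483), 4 had an unadjusted p under 0.05, beside 3.61% of all probe sets, and for 7, or 10.1%, the groups did not overlap, beside 7.41% of all probe sets. The list medians lay close to 0, and for 5 of the 8 lists the sign turned when 1 array was left out, as for the inhibitors (-0.037 without Tet2-/- replicate 6).

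**Figure D4:**
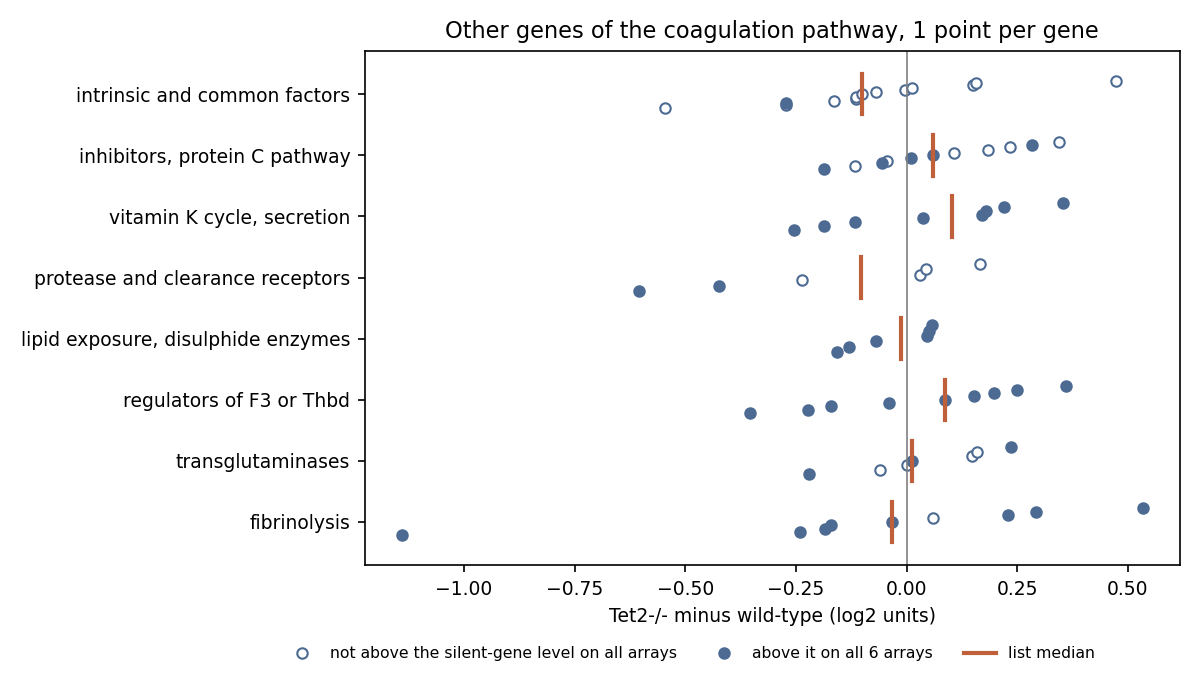
Difference between Tet2-/- and wild-type means (log2 units) for 69 further genes in 8 lists, 1 point per gene, open where the gene was not above the silent-gene level on all 6 arrays; bars are list medians, from -0.103 to 0.103. The leftmost point is Plau at -1.14.

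Most other genes of the intrinsic and common pathways were dim in these macrophages. Of 13 intrinsic and common pathway genes, 9 were under the silent-gene level on every array and only Vwf was above it on all 6. In that list 4 genes had a higher and 9 a lower mean in Tet2-/- (median -0.10). F9, which encodes factor IX, was at 2.67, 2.51 and 2.97 in wild-type and 2.15, 2.28 and 2.08 in Tet2-/- macrophages, a difference of -0.55 (limma unadjusted p = 0.00640, adjusted p = 0.998). It was above the silent-gene level on 2 of the 6 arrays. Kng1, the precursor of bradykinin, differed by 0.47 at levels under that line (0.15 without Tet2-/- replicate 6), and Vwf, the platelet-binding factor, by -0.27.

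Among inhibitors and protein C pathway genes, 7 of 11 measured had a higher and 4 a lower mean (median 0.06), and 5 were above the silent-gene level on all arrays. Serping1, the C1 inhibitor, differed by 0.34, Tfpi2, a protease inhibitor, by 0.23, and Serpind1, heparin cofactor II, by 0.18, the last under the silent-gene level throughout. Tfpi and Pros1 were named for their role. Tfpi, the inhibitor of the tissue factor and factor VII pair, was at 4.81, 4.94 and 4.91 on the wild-type arrays and 4.75, 4.77 and 4.97 on the Tet2-/- arrays, a difference of -0.057. Pros1, protein S, the cofactor of activated protein C, was at 5.98, 5.69 and 5.28 and at 6.01, 6.43 and 5.36. It was highest in Tet2-/- replicate 5, as F5, F10 and F13a1 were, and it differed by 0.28 (limma adjusted p = 0.998).

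Receptors for coagulation proteases and their clearance gave 3 higher and 3 lower means of 6 measured (median -0.103). F2r, the thrombin receptor PAR1, was at 4.18, 4.46 and 4.92 in wild-type and 4.26, 3.89 and 3.6 in Tet2-/- macrophages, a difference of -0.60 with overlap (limma unadjusted p = 0.0262, adjusted p = 0.998). Lrp1, a scavenger receptor that clears protease complexes, differed by -0.42 (limma unadjusted p = 0.0441, adjusted p = 0.998). Asgr1, a liver clearance receptor, differed by -0.24 under the silent-gene level.

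Genes that process or expose the factors differed by small amounts. In the vitamin K cycle and secretion list, 5 of 8 were higher and 3 lower (median 0.103), with the cargo receptor subunit Mcfd2 at -0.25, the reductase Vkorc1l1 at 0.35 and the sulphotransferase Tpst2 at -0.19. Of 6 genes for lipid exposure and disulphide exchange at the cell surface, 3 were higher and 3 lower (median -0.012), with the scramblase family members Plscr3 and Plscr1 at -0.16 and -0.13 and the disulphide isomerase P4hb at -0.07. Of 9 regulators known for F3 or Thbd, 5 were higher and 4 lower (median 0.087). Fos and Jun, both AP-1 subunits, differed by -0.35 and -0.17 with overlapping groups. Klf2, an activator of Thbd, differed by 0.36, and Sp1, which binds GC boxes, by 0.25. Each of these 3 lists had 0 genes at an unadjusted p under 0.05.

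Fibrinolysis genes, which dissolve the clot, gave 4 higher and 5 lower means of 9 measured (median -0.033). Plau encodes urokinase, which activates plasminogen. Its level was 8.09, 7.93 and 8.28 in wild-type and 6.97, 6.6 and 7.31 in Tet2-/- macrophages. All Tet2-/- arrays were lower, replicate 5 the lowest as for Procr (difference -1.14, limma unadjusted p = 0.000245, adjusted p = 0.483). Serpinb2, the inhibitor of urokinase, differed by 0.53 and Plaur, its receptor, by -0.24, both with overlapping groups.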

How the data were processed

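RNA of 6 macrophage samples was measured on Affymetrix arrays, 1 array each. The values the authors deposited are log2 expression levels. RMA and the package affy 1.36.1 are the tools that the submitters' processing notes name. RMA subtracts background, equalises array distributions and combines the probes of a set, which compresses differences of dim genes. The log2 scale was read from the values (0.19 to 12.21). Whether all arrays were normalized together is not given in the sources used here.

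Probe sets were named through the platform annotation (23185 with 1 gene, 2021 unnamed). Differences came from limma 3.58.1 (lmFit and eBayes, two-sided; R 4.3.3) fitted over all 25206 probe sets, with Benjamini-Hochberg adjustment and a threshold of 0.05. The test was checked on simulated data with known changes set in brighter probe sets. At the adjusted threshold it found 0 of 67 changes of 0.5 log2 units, 41.8% at 1 and 80.3% at 2. List genes were matched by symbol. The deviations of same-numbered arrays of the groups gave r = 0.15, -0.215 and 0.112 for replicates 4, 5 and 6. Arrays with different numbers gave r from -0.363 to 0.362. With so few arrays per group, these values cannot tell whether the numbers pair samples. The main fit did not pair them.

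Members and lists were chosen with earlier results of these data known. Named were the 7 genes, their flanking measured genes, and the 3 of each pathway list with the smallest p. Some of the brightest or non-overlapping markers were named, and others of them were left out. For genes with a range of at least 1, the 3 genes of most similar pattern among the brighter ones were named too. Alternatives were the genotype field as grouping, a replicate block, a variance trend, array weights, median centring, further quantile normalization, brighter probe sets alone, other thresholds, and each array left out. Other names were added after values were seen. Promoter sequences were found for 6 of the 7 genes. Only 3 arrays per group limit the precision.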

Additional observations from a re-analysis of the deposited data

How the results depend on the processing

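None of the 7 genes passed an adjusted p of 0.05 under any of 13 other settings each (lowest limma adjusted p = 0.159, Procr without Tet2-/- replicate 6). In 83 of the 91 values the direction was kept. By the genotype characteristic the sign turned for F3 (0.177), F7 (0.283), Thbd (0.053) and Procr (0.08), with array weights for Thbd (0.075), and without single arrays for Thbd (0.008 without wild-type replicate 5, 0.09 without Tet2-/- replicate 6) and F10 (-0.06 without Tet2-/- replicate 5). Leaving out each array in turn gave -0.308 to -0.158 for F3, 0.405 to 1.815 for F5, -0.898 to -0.583 for F7, -0.06 to 0.335 for F10, 0.112 to 0.422 for F13a1, -0.18 to 0.09 for Thbd and -1.078 to -0.643 for Procr. The count of probe sets past the threshold was 0, and 2 with array weights, 910 at an unadjusted p of 0.05, and 0 to 19 when 1 array was left out (19 without Tet2-/- replicate 6, 1 without wild-type replicate 4). The cause was not tested. A replicate block grouped samples by their shared numbers. With it F7 and Procr stayed at -0.763 and -0.90 (limma adjusted p = 0.664 and 0.936), 0 probe sets passed and no call moved. Over all lists and settings, 30 list medians moved by more than the spread between replicates and 243 did not. No detection call per probe set was used here, so signal over background was judged only against silent genes.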
